A study of Homo sapiens with 24 samples.

Results

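The TCF/LEF transcription factors LEF1, TCF7, TCF7L1 and TCF7L2 were followed in a liver cell line over 8 culture conditions. The 4 genes, of 20503 with a symbol on the array, were taken by name, and every array probe whose RefSeq transcript belongs to them was used. These were 7 of 50683 probes: 1 for LEF1, 2 for TCF7, 1 for TCF7L1 and 3 for TCF7L2. All 7 were among the 31062 probes kept, those whose signal the scanner software marked as well above the local background in every replicate of some condition.

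TCF/LEF proteins bind DNA through an HMG box and sit on Wnt-responsive genes whether or not the Wnt pathway is active. Without β-catenin they recruit corepressors of the TLE (Groucho) family, and when Wnt ligands stabilise β-catenin they pair with it and activate transcription. LEF1 and TCF7 are often Wnt targets themselves, TCF7L1 is known mainly as a repressor in stem and progenitor cells, and TCF7L2 is the family member most often studied in adult liver and gut.

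Gene expression was read on 24 one-colour (Cy3) microarrays of HepaRG cells, a human hepatocellular carcinoma line used as a model of liver progenitors. Cells were left untransfected, were transfected with Control-siRNA or CTNNB1-siRNA (80 pmol, against β-catenin), or stayed untransfected and received FZD8_CRD at 300 ng/ml, the Wnt-binding part of Frizzled-8 in soluble form. All 4 groups were grown with or without recombinant mouse Wnt3a at 200 ng/ml for 72 h, in serum-free medium, which gives 8 conditions of 3 arrays. The series describes independent cultures in triplicate, and the 3 arrays of a condition, numbered 1 to 3, limit the precision of every value below. FZD8_CRD was given to cells that had not been electroporated, so its reference here is the untransfected group, and the reference of the β-catenin siRNA is the control siRNA.

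All levels are log2 of the scanner software's spot intensity relative to the 75th percentile of the same array, so that 0 is the brightness of that percentile and a step of 1 is a doubling. They are printed for replicates 1, 2 and 3 in this order. Levels of different probes are not comparable with each other, since probes differ in their response. A probe was called changed where limma's moderated t-test, fitted on all 31062 kept probes, gave a Benjamini-Hochberg adjusted p under 0.05. SE is the standard error of a log2 fold change from that fit. The SE and p-values rest on a spread estimated per probe over all 24 arrays, not only over the arrays compared. Where conditions differ in spread, the SE can be too small for some comparisons and too large for others. The SD of LEF1, for example, was 0.37 in untransfected cells with Wnt3a and 0.02 with control siRNA and Wnt3a. Arrays of the same replicate number shared a slide, and each condition kept its position on the 3 slides, so that condition and position cannot be told apart.

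The liver origin of the line was checked against 10 hepatocyte markers, all of which were well above background on all 24 arrays, with the ALB (albumin) probe the brightest. LEF1 and TCF7 are also T cell genes, and 10 T cell markers were therefore read as well. CD5, LCK and ZAP70 were above background on 0 of 24 arrays, CD3G on 1, CD7 on 6, CD3E on 16, CD2 and CD28 on 21, and CD3D and PTPRC on 24. Of the 5 T cell markers kept, 0 were called in any comparison, where between 0% and 41.7% of all kept probes were called.

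The siRNA target was read first. CTNNB1, which encodes β-catenin, had levels of 3.35, 3.39 and 3.52 with control siRNA and 0.26, 0.36 and 0.52 with β-catenin siRNA on probe A_23_P29495. With Wnt3a added the same probe read 3.39, 3.62 and 3.70 with control siRNA and 0.33, 0.53 and 0.79 with β-catenin siRNA. In the remaining conditions it read 3.28, 3.28 and 3.58 (untransfected), 3.40, 3.33 and 3.50 (untransfected with Wnt3a), 3.23, 3.40 and 4.11 (FZD8_CRD) and 3.55, 4.0 and 3.91 (FZD8_CRD with Wnt3a). All 6 arrays labelled CTNNB1-siRNA were far below all 18 others, with no overlap. The fall was -3.04 (SE 0.17) without Wnt3a and -3.02 (SE 0.17) with it, limma adjusted p 1.19e-09 and 8.78e-10, and every same-numbered pair of arrays fell. A second CTNNB1 probe, A_33_P3421695, changed by -3.53 and -3.66.

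LEF1 and TCF7 were the members whose levels moved together over the conditions, and stretches around transcription starts of theirs are printed for that reason. They are RefSeq sequences of build GRCh38.p14, 300 bases each, read 5′ to 3′ on the strand of the gene: LEF1 promoter 1 at chr4:108166252-108166551 (minus strand), TCF7 promoter 1 at chr5:134115363-134115662 (plus strand) and TCF7 promoter 2 at chr5:134123368-134123667 (plus strand). The reference table matched 4 of 4 members with 7 promoters, and the printed stretches lie inside the annotated spans of LEF1 (chr4:108047548-108168932) and TCF7 (chr5:134108218-134148210), so the outermost annotated start of either gene is not among them. The 4 forms of the core that TCF/LEF proteins recognise were searched on both strands, and a match is in capitals. Of 35116 human promoters of 300 bases, 5.20% held CTTTGTT, 4.43% held CTTTGAA, 2.62% held CTTTGAT and 2.77% held CTTTGTA, and 13.8% held at least 1 of the 4.
LEF1 promoter 1: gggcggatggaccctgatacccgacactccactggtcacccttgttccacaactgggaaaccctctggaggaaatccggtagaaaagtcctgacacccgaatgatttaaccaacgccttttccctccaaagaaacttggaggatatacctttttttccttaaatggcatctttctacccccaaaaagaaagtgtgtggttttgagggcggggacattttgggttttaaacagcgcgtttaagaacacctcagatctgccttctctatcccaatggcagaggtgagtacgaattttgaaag
TCF7 promoter 1: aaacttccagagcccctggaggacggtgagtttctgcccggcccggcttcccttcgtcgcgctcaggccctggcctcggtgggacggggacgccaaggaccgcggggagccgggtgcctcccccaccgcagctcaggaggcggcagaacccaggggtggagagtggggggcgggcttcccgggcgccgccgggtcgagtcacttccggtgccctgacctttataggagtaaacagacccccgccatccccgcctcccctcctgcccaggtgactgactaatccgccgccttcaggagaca
TCF7 promoter 2: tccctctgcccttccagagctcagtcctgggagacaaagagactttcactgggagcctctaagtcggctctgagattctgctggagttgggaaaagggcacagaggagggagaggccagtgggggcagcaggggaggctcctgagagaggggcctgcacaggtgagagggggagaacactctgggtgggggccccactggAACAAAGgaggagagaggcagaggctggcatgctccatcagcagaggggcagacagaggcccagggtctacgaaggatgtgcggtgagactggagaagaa
TCF7 promoter 2 held 1 match, CTTTGTT on the opposite strand at base 201, 50 bases before the start, and the other printed stretches held 0. Of the 4 promoters not printed, those of TCF7L1 and TCF7L2, TCF7L2 promoter 2 held 1 match, CTTTGTT on the gene's strand 133 bases before the start. A match is a description of the letters only, and the files do not say which start the probed transcripts used.

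LEF1, a β-catenin partner that is itself switched on in many Wnt-active tissues, was read by probe A_24_P20630. Its levels were -0.28, -0.06 and 0.42 in untransfected cells and 0.96, 1.58 and 0.93 after Wnt3a. With control siRNA they were 0.87, 0.95 and 0.94, and with control siRNA and Wnt3a 1.53, 1.56 and 1.51. The untransfected arrays were thus the lowest of these, control siRNA alone already reached the Wnt3a-treated untransfected range, and Wnt3a arrays lay above their own reference without overlap in both groups. With β-catenin siRNA LEF1 read 0.20, 0.24 and 0.16, and with β-catenin siRNA and Wnt3a 0.59, 0.52 and 0.32. With FZD8_CRD it read 0.93, 0.95 and 1.19, and with FZD8_CRD and Wnt3a 1.20, 1.23 and 1.19. In words, every β-catenin siRNA array was below every control siRNA array, and cells given FZD8_CRD without Wnt3a were all above the untransfected cells.

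From low to high, the mean LEF1 levels ran from untransfected (0.02, SD 0.36) and β-catenin siRNA (0.20, SD 0.04), which overlapped, to β-catenin siRNA with Wnt3a (0.48, SD 0.14). Then came control siRNA (0.92, SD 0.04), FZD8_CRD (1.02, SD 0.15), untransfected with Wnt3a (1.16, SD 0.37) and FZD8_CRD with Wnt3a (1.20, SD 0.02), each overlapping its neighbour. Control siRNA with Wnt3a (1.53, SD 0.02) stood highest, apart from its neighbour in this order. β-catenin siRNA did not overlap β-catenin siRNA with Wnt3a, nor did the latter overlap control siRNA. The LEF1 signal was 22 to 105 times its local background.

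**Figure D1:**
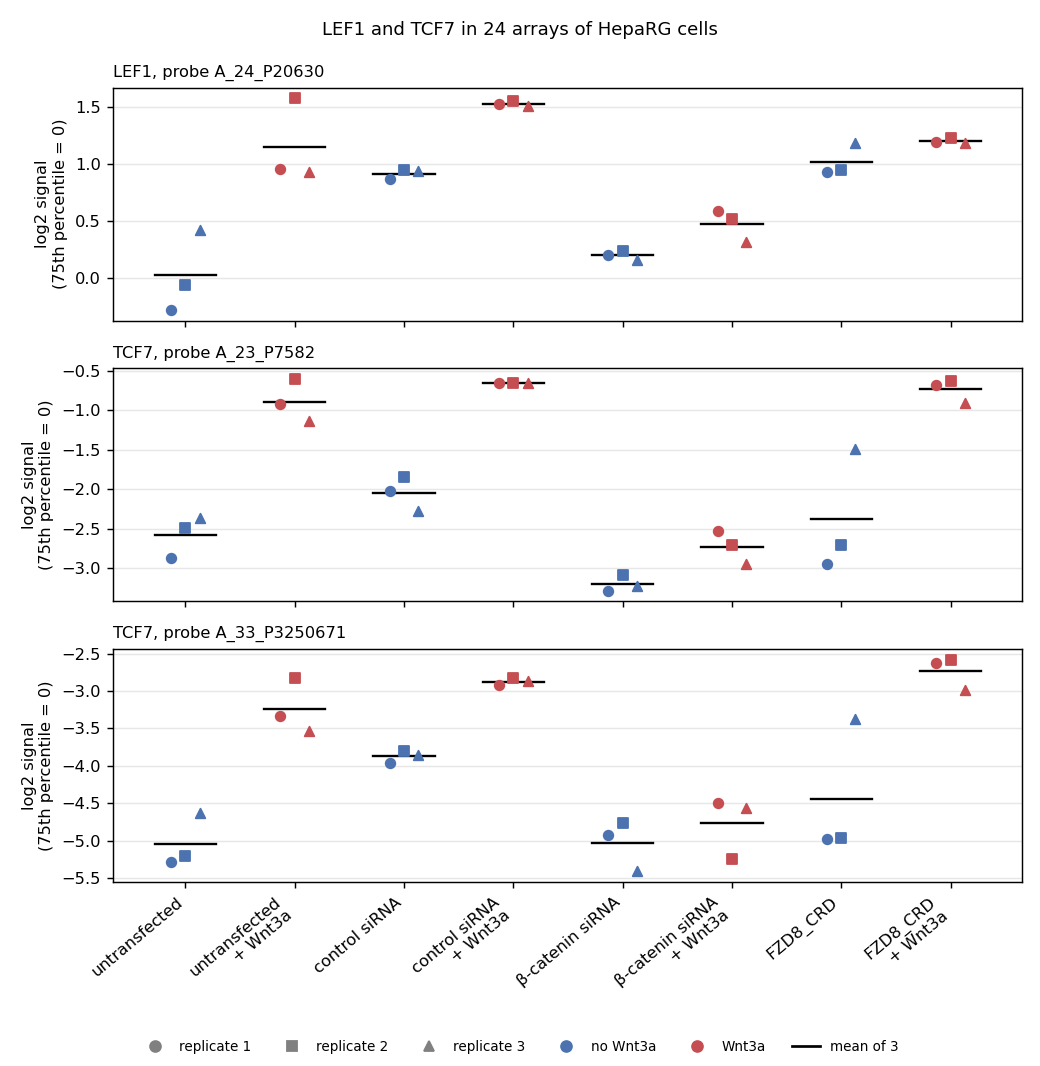
Level of LEF1 and of both TCF7 probes on each of 24 arrays (vertical axis, log2 signal relative to the array's 75th percentile) by condition (horizontal axis), with blue for no Wnt3a, red for Wnt3a, circle, square and triangle for replicates 1 to 3 and a line at each mean. LEF1 and TCF7 were lower with β-catenin siRNA than with control siRNA, and TCF7 stepped up with Wnt3a in the presence of FZD8_CRD.

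TCF7, which encodes TCF-1, is spotted 10 times on each array as probe A_23_P7582, and the spread over these spots was small (median SD 0.08, range 0.04 to 0.13). Its levels were -2.88, -2.49 and -2.37 in untransfected cells and -0.92, -0.60 and -1.14 after Wnt3a. With control siRNA they were -2.02, -1.84 and -2.28, and with Wnt3a added -0.65 on all 3 arrays. Wnt3a arrays were above their reference without overlap in both groups. With β-catenin siRNA the levels were -3.29, -3.09 and -3.23, and with Wnt3a added -2.53, -2.71 and -2.95. With FZD8_CRD they were -2.95, -2.71 and -1.49, and with FZD8_CRD and Wnt3a -0.67, -0.62 and -0.91. The FZD8_CRD array of replicate 3 stood above its fellows, and the Wnt3a arrays with FZD8_CRD were still all higher.

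The conditions formed 3 steps for this TCF7 probe. β-catenin siRNA alone was lowest (-3.20, SD 0.10) and overlapped no other condition. β-catenin siRNA with Wnt3a (-2.73, SD 0.21), untransfected (-2.58, SD 0.27), FZD8_CRD (-2.38, SD 0.78) and control siRNA (-2.05, SD 0.22) followed, each overlapping its neighbour. The 3 Wnt3a conditions with β-catenin intact were highest and overlapped: untransfected (-0.89, SD 0.27), FZD8_CRD (-0.73, SD 0.15) and control siRNA (-0.65, SD 0.00). β-catenin siRNA with Wnt3a thus sat among the conditions without Wnt3a.

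The second TCF7 probe, A_33_P3250671, was dimmer, at 1.55 to 6.86 times its background. Untransfected cells read -5.28, -5.21 and -4.63, rising to -3.34, -2.83 and -3.54 with Wnt3a. Control siRNA read -3.96, -3.80 and -3.86, and -2.92, -2.83 and -2.87 with Wnt3a. Wnt3a arrays again lay above their reference without overlap. β-catenin siRNA read -4.93, -4.76 and -5.41, and -4.49, -5.25 and -4.56 with Wnt3a, and these 2 conditions overlapped. FZD8_CRD read -4.98, -4.97 and -3.38, and -2.63, -2.58 and -2.99 with Wnt3a. All conditions without Wnt3a, and β-catenin siRNA with it, formed a lower block in which neighbours overlapped, and the other 3 Wnt3a conditions had higher means and overlapped each other. The 2 sets were not fully apart, since the FZD8_CRD array of replicate 3 (-3.38) lay above the untransfected Wnt3a array of replicate 3 (-3.54). Over the 24 arrays the 2 TCF7 probes had a Pearson correlation of 0.95, and 0.83 after each condition's mean was taken off.

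In untransfected cells Wnt3a raised LEF1 and TCF7 and left TCF7L1 and TCF7L2 without a call. LEF1 rose by 1.13 (SE 0.15, a fold of 2.19) and TCF7 by 1.69 (SE 0.25, a fold of 3.23) and 1.80 (SE 0.33) on its probes. All same-numbered pairs rose: LEF1 by 1.24, 1.64 and 0.51, and the first TCF7 probe by 1.96, 1.89 and 1.22. Called were 3 of 7 member probes, all up, where 5.13% of all kept probes were called. The median change of the members was 0.33 and of all kept probes 0.028. The share over all probes itself moved with single arrays, from 1592 calls to 198 without the Wnt3a array of replicate 2 and to 4053 without that of replicate 3, and to 3363 in a fit blocked on replicate number, while 3 member probes were called in each. The limma adjusted p was 0.000347 for LEF1 and 0.00101 and 0.0047 for TCF7. The calls ended without replicate 1 (LEF1 1.08, adjusted p 0.0878, TCF7 1.56, 0.132 and 1.73, 0.216) and without replicate 2 (0.88, 0.219, 1.59, 0.318 and 1.51, 0.482), fits in which the calls over all probes went from 1592 to 23 and 11, and in a fit of these 6 arrays alone (0.414, 0.169 and 0.284). LEF1's also ended when arrays were scaled to spike-in probes (0.73, adjusted p 0.142). Over all settings that kept every array the adjusted p ran from 0.000293 to 0.414 for LEF1, from 0.000756 to 0.169 for the first TCF7 probe and from 0.00337 to 0.284 for the second. The pairing of arrays by number was uneven here, since 2 of 3 same-numbered pairs had residuals that correlated above 0.1.

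After control siRNA, Wnt3a raised LEF1 and TCF7 as well. LEF1 rose by 0.61 (SE 0.15) and TCF7 by 1.40 (SE 0.25) on A_23_P7582, with all 3 pairs up for both, LEF1 by 0.65, 0.61 and 0.58. A_33_P3250671 read 1.00 higher (SE 0.33), also in 3 of 3 pairs, and was not called (limma adjusted p 0.13). Called were 2 of 7 member probes, both up, against 1.73% of all kept probes, with medians of 0.48 and 0.028. The calls over all probes went from 536 to 66 without the control siRNA array of replicate 3. In a fit blocked on replicate number they went to 1187. For TCF7 the limma adjusted p was 0.00751, and the call ended without replicate 1 (0.249), without replicate 2 (0.247) and without the control siRNA array of replicate 3 (0.0628). LEF1 stood close to the threshold at 0.0425. Its call ended under 6 of 15 other settings (adjusted p 0.0078 to 0.435 over all of them), without replicate 1 (0.412) or 2 (0.381), and without any 1 of the 6 arrays compared (0.0888 to 0.165). The call on A_33_P3250671 was gained in a fit of the 6 arrays alone (0.0113, range over its settings 0.0113 to 0.249).

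After β-catenin siRNA, the response of the members to Wnt3a was small and no probe was called. LEF1 was 0.28 higher (SE 0.15, higher in 3 of 3 pairs) and TCF7 0.47 (SE 0.25, 3 of 3 pairs) and 0.27 (SE 0.33, 2 of 3 pairs). limma called 0 of 7 member probes, against 0.0225% of all kept probes, or 7 of 31062. At an unadjusted p under 0.05 the count was also 0 of 7, and it was 0 without moderation and in every other setting. The members' median was 0.27 and that of all kept probes 0.034.

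With FZD8_CRD present, Wnt3a raised TCF7, and LEF1 was not called. TCF7 rose by 1.65 (SE 0.25) and 1.71 (SE 0.33), with pairs at 2.28, 2.08 and 0.58 and at 2.35, 2.39 and 0.39. LEF1 was 0.18 higher (SE 0.15, pairs 0.27, 0.28 and -0.01, limma adjusted p 0.602). Called were 2 of 7 member probes, both TCF7 and both up, against 7.82% of all kept probes, with medians of 0.12 and 0.025. The calls over all probes went from 2430 to 388 without the FZD8_CRD array of replicate 1. They went to 6034 without that of replicate 3, while 2 member probes were called in both fits. The limma adjusted p was 0.000988 and 0.004. The TCF7 calls ended without replicate 1 (0.348 and 0.5), without replicate 2 (0.293 and 0.378) and in a fit of the 6 arrays alone (0.206 and 0.223), and over the settings that kept every array the adjusted p spanned 0.000538 to 0.206 and 0.00376 to 0.223.

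**Figure D2:**
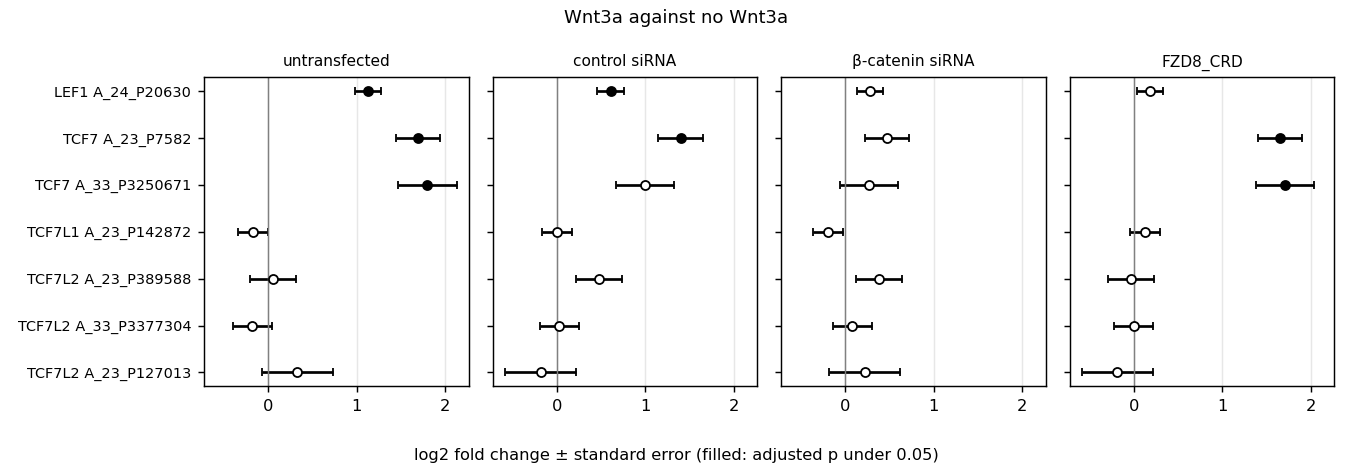
Log2 fold change with Wnt3a (horizontal axis, bar ± SE) of each member probe in each of 4 backgrounds, filled where the adjusted p was under 0.05. TCF7 responded in 3 backgrounds, LEF1 in 2, and no member probe was called with β-catenin siRNA.

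Among cells without Wnt3a, β-catenin siRNA lowered LEF1 and TCF7 below control siRNA. LEF1 fell by 0.72 (SE 0.15) and TCF7 by 1.15 on both probes (SE 0.25 and 0.33), and all 3 pairs fell for each. Called were 3 of 7 member probes, all down, against 10.0% of all kept probes, with medians of -0.17 and -0.031. The limma adjusted p was 0.00411 for LEF1 and 0.00566 and 0.0285 for TCF7. Scaling to spike-in probes ended all 3 calls (-0.63, -1.07 and -1.07, adjusted p 0.516, 0.0676 and 0.153), as did leaving out replicate 1 (-0.75, -1.09 and -1.25, adjusted p 0.0925, 0.134 and 0.247) or 2 (-0.72, -1.11 and -1.25, adjusted p 0.0786, 0.16 and 0.162). In these 3 fits the calls over all probes went from 3108 to 202, 582 and 550. The second TCF7 probe also lost its call with another background correction (-0.46, 0.0695), without the filter (0.0657) and without any 1 of 5 of the 6 arrays (0.0624 to 0.147). Over the settings with every array the adjusted p spanned 0.00143 to 0.516 for LEF1, 0.00467 to 0.0676 for A_23_P7582 and 0.0119 to 0.153 for A_33_P3250671.

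With Wnt3a present β-catenin siRNA lowered the same 2 genes. LEF1 fell by 1.06 (SE 0.15) and TCF7 by 2.08 (SE 0.25) and 1.89 (SE 0.33), with all pairs down and no overlap. Called were 3 of 7 member probes, all down, against 9.94% of all kept probes, with medians of -0.27 and -0.015. The limma adjusted p was 9.29e-05 for LEF1 and 1.55e-05 and 0.000637 for TCF7. These calls held in every setting except that A_33_P3250671 missed the threshold without replicate 2 (0.0726, against 5.64e-05 to 0.00589 with every array). With normexp background correction the change on this probe was -0.78 in place of -1.89, and its rises with Wnt3a were 0.69 in place of 1.80 in untransfected cells and 0.78 in place of 1.71 with FZD8_CRD, all 3 still called. The comparisons without and with Wnt3a use separate arrays.

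Whether the response to Wnt3a differed between the siRNAs was tested directly. The rise was smaller with β-catenin siRNA by 0.34 for LEF1 (SE 0.21) and by 0.93 (SE 0.36) and 0.74 (SE 0.46) for TCF7, and lower in all 3 pairs for each. limma called 0 of 7 member probes for this difference, against 0.0129% of all kept probes, and 1 of 7, the first TCF7 probe, had an unadjusted p under 0.05 (p 0.0177, adjusted p 1). The count was 0 without moderation as well. So the smaller rise after the knockdown is a description for the members and did not pass the test. The members' median difference was -0.20 and that of all kept probes 0.011.

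FZD8_CRD without Wnt3a went with higher LEF1 and lower TCF7L1 and TCF7L2 than in untransfected cells. LEF1 rose by 1.00 (SE 0.15, pairs 1.21, 1.01 and 0.78). TCF7L1 fell by 0.45 (SE 0.17, pairs -0.46, -0.61 and -0.28), and TCF7L2 by 0.78 (SE 0.22, pairs -1.19, -0.46 and -0.69) on 1 of its 3 probes, A_33_P3377304. TCF7 was not called, at 0.19 (SE 0.25, higher in 1 of 3 pairs) and 0.60 (SE 0.33, higher in 3 of 3 pairs, limma adjusted p 0.155). Without the FZD8_CRD array of replicate 3 these were -0.25, a change of sign, and 0.07. The count was 3 of 7 member probes, 1 up and 2 down, where 41.7% of all kept probes were called, a share near that of the members. The medians were -0.02 and -0.065. The limma adjusted p was 2.89e-05 for LEF1, 0.0352 for TCF7L1 and 0.00829 for TCF7L2.

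The LEF1 rise lost its call when arrays were scaled to spike-in probes (0.61, adjusted p 0.0767, range 2.51e-05 to 0.0767). That scaling moved the median of all probes in this comparison to -0.46. TCF7L1 lost its call in 4 of 15 settings (0.00142 to 0.0714 over all), without replicate 1 (0.145) or 2 (0.294), without either of these untransfected arrays (0.108 and 0.108) and without the FZD8_CRD array of replicate 2 (0.0911) or 3 (0.0767). TCF7L2 lost it with quantile normalization (-0.54, 0.0671, range 0.000908 to 0.0671) and without replicate 1 (0.165). The size of the TCF7L2 fall ran from -1.17 to -0.35 over the settings with every array. A call for the second TCF7 probe was gained with quantile normalization (0.85, adjusted p 0.042) and from the values the authors normalised (0.85, 0.0356), within a range of 0.0356 to 0.648.

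With Wnt3a in both groups, FZD8_CRD moved only TCF7L2 past the threshold. LEF1 differed by 0.05 (SE 0.15) and TCF7 by 0.15 (SE 0.25) and 0.50 (SE 0.33), and none of these was called. TCF7L2 fell by 0.60 (SE 0.22, all 3 pairs) on A_33_P3377304, the only call of 7, against 37.2% of all kept probes, with medians of -0.11 and -0.068. Its limma adjusted p was 0.0403, lost in 7 of 13 other settings (0.00728 to 0.232) and in 7 of 9 fits that left out a replicate or an array (0.0147 to 0.231). The size of this fall ran from -0.69 to -0.26 over the settings with every array. It was -0.26 with normexp background correction and -0.37 with quantile normalization. TCF7L2 probe A_23_P127013 was 0.69 lower (SE 0.40, pairs -0.82, -0.62 and -0.65) and not called, at a limma adjusted p of 0.194. With the replicate number as a block in the fit it was called (-0.69, SE 0.18, adjusted p 0.00372, range over its settings 0.00372 to 0.448), which made 2 of 7, and without replicate 3 too (-0.72, 0.0334). On 2 of the 3 arrays with FZD8_CRD and Wnt3a, replicates 1 (-5.47) and 2 (-5.70), this probe was not well above background, so the size of its difference is uncertain.

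The test of whether FZD8_CRD changed the response to Wnt3a gave its largest member value for LEF1. The LEF1 response was 0.95 smaller with FZD8_CRD than without (SE 0.21, pairs -0.97, -1.36 and -0.52, unadjusted p 0.000255). Its limma adjusted p was 0.0835, so it was not called. With the replicate number as a block in the fit it was called (-0.95, SE 0.21, adjusted p 0.0478), which made 1 of 7. limma called 0 of 7 member probes, against 0.0676% of all kept probes, 1 of 7 (LEF1) had an unadjusted p under 0.05, and without moderation the count was 0. The LEF1 difference passed without replicate 3 (-1.16, adjusted p 0.0052), and without the replicate 3 array of untransfected cells (-1.15, 0.0105), FZD8_CRD (-0.86, 0.0223) or untransfected cells with Wnt3a (-1.06, 0.0328). Over the settings with every array its adjusted p ran from 0.0478 to 0.867. The LEF1 difference lay on the side without Wnt3a, where FZD8_CRD cells were 1.00 above untransfected cells (SE 0.15). With Wnt3a in both groups LEF1 differed by only 0.05 (SE 0.15). For TCF7 the difference was -0.04 (SE 0.36) and -0.09 (SE 0.46). Without the FZD8_CRD array of replicate 3 these were 0.40 and 0.44. Over the leave-outs they ran from -0.32 to 0.40 and from -0.36 to 0.44, with the sign changed in 5 of 15 for each probe and none called. The medians were -0.09 and 0 for members and all kept probes.

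**Figure D3:**
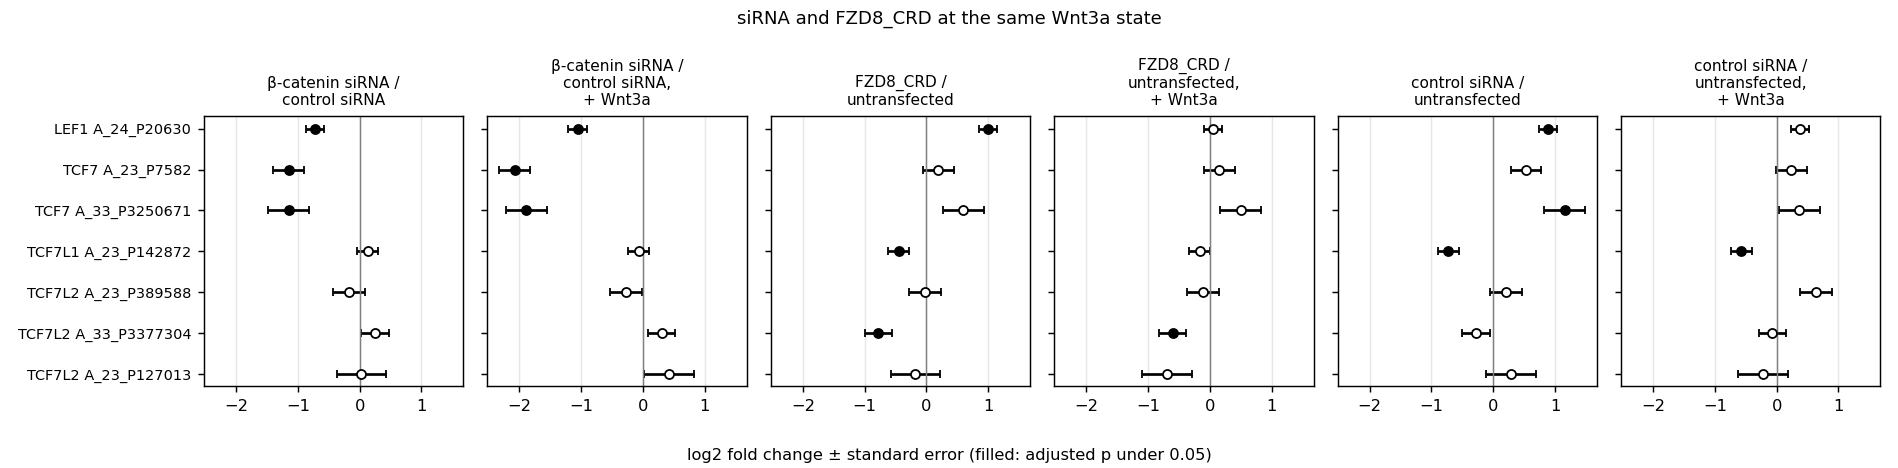
Log2 fold change of each member probe (horizontal axis, bar ± SE) for β-catenin siRNA against control siRNA, FZD8_CRD against untransfected and control siRNA against untransfected, each without and with Wnt3a, filled where the adjusted p was under 0.05. LEF1 and TCF7 fell with β-catenin siRNA, while LEF1 rose and TCF7L1 fell with FZD8_CRD and with control siRNA in the absence of Wnt3a.

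Members also differed between transfected and untransfected cells. Without Wnt3a, control siRNA against untransfected cells went with higher LEF1 (0.89, SE 0.15, pairs 1.15, 1.01 and 0.52) and lower TCF7L1 (-0.73, SE 0.17, pairs -0.78, -0.65 and -0.77). TCF7 was higher by 0.53 (SE 0.25, 3 of 3 pairs, not called) on A_23_P7582 and rose by 1.16 (SE 0.33, 3 of 3 pairs) on A_33_P3250671. Called were 3 of 7 member probes, 2 up and 1 down, against 22.1% of all kept probes, with medians of 0.29 and -0.019. This comparison shares the untransfected arrays with the FZD8_CRD comparison and with the untransfected Wnt3a comparison, so that a low untransfected LEF1 level enters all 3. The same level enters the differences in Wnt3a response taken against untransfected cells.

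The limma adjusted p was 0.000415 for LEF1, 0.0143 for A_33_P3250671, 0.00326 for TCF7L1 and 0.15 for A_23_P7582. LEF1's call ended with spike-in scaling (0.61, adjusted p 0.169, range 0.000286 to 0.169) and without replicate 1 (0.068). That of A_33_P3250671 ended with spike-in scaling (0.102), with another background correction (0.39, 0.0972, range 0.0062 to 0.102), without replicate 1 (0.228) or 2 (0.147) and without the untransfected array of replicate 1 (0.0699) or 2 (0.0518). TCF7L1's ended without replicate 1 (0.0933) or 2 (0.0696). A_23_P7582 was called without replicate 3 (0.75, 0.00433) and as the mean of the TCF7 probes (0.85, 0.0343, range 0.0343 to 0.619).

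With Wnt3a in both groups, control siRNA lowered TCF7L1 by 0.57 (SE 0.17, pairs -0.51, -0.69 and -0.50). This was the only member call of 7, against 8.69% of all kept probes, with medians of 0.24 and -0.018. Its limma adjusted p was 0.0372. The call ended in 4 of 15 other settings (0.0025 to 0.659 over all), without replicate 1 (0.241) or 2 (0.316), and without replicate 1 (0.169) or 2 (0.0573) of the untransfected Wnt3a arrays or 2 (0.151) or 3 (0.116) of the control siRNA Wnt3a arrays. LEF1 was 0.38 higher (SE 0.15, 2 of 3 pairs, limma adjusted p 0.13), and passed only without the untransfected Wnt3a array of replicate 2 (0.59, 0.00504), the highest LEF1 level of that condition at 1.58.

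TCF7L2 probe A_23_P389588 was 0.64 higher in the same comparison (SE 0.26, pairs 0.57, 1.08 and 0.26, limma adjusted p 0.138). With the replicate number as a block it was called (0.64, SE 0.19, adjusted p 0.0322, range 0.0322 to 0.675), which made 2 of 7. It also passed without replicate 3 (0.83, 0.0462) and without the replicate 3 array of control siRNA with Wnt3a (1.00, 0.0276), which read -4.07 beside -3.35 and -2.65. Over all fits that left out a replicate or array, this difference ran from 0.28 to 1.00, with adjusted p from 0.0276 to 0.663. For the difference in the Wnt3a response between control siRNA and untransfected cells, limma called 0 of 7 member probes, against 0% of all kept probes, 1 of 7 had an unadjusted p under 0.05 (LEF1, -0.52, SE 0.21, p 0.0254, adjusted p 0.975), and without moderation the count was 0. The medians were -0.29 and 0. The LEF1 difference ran from -0.81 to -0.26 over the leave-outs. It ran from -0.52 to 0.04 over the settings with every array, with 1 change of sign.

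TCF7L1, the family's repressor in progenitor cells, was read by A_23_P142872 at 8.61 to 27.4 times its background. It read -0.02, 0.00 and -0.31 in untransfected cells, and -0.19, -0.23 and -0.41 with Wnt3a. It read -0.80, -0.65 and -1.08 with control siRNA, and -0.70, -0.92 and -0.91 with Wnt3a added. Both untransfected conditions were above both control siRNA conditions without overlap. It read -0.52, -0.68 and -0.94 with β-catenin siRNA, and -0.76, -0.71 and -1.27 with Wnt3a added. It read -0.47, -0.61 and -0.59 with FZD8_CRD, and -0.10, -0.44 and -0.76 with Wnt3a added. In order of the means, from β-catenin siRNA with Wnt3a (-0.91) to untransfected (-0.11), every condition overlapped the next. Wnt3a moved it by -0.17, 0.00, -0.20 and 0.12 in the 4 groups, and β-catenin siRNA by 0.13 and -0.07, none called.

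TCF7L2 was dim on all 3 of its probes, at most 5.88 times background. A_23_P389588 read from -4.39 to -2.65, and its highest mean, control siRNA with Wnt3a (-3.36, SD 0.71), rested on an array at -2.65. A_33_P3377304, which matches another transcript (NM_001198531), was lowest with FZD8_CRD. It read -4.64, -4.26 and -4.47 there and -4.32, -4.41 and -4.64 with Wnt3a added, against -3.45, -3.80 and -3.79 in untransfected cells and -3.70, -3.65 and -4.21 with Wnt3a alone. Both FZD8_CRD conditions lay below their references without overlap, while the control siRNA array of replicate 3 (-4.29) was within the range of FZD8_CRD alone. The remaining conditions overlapped.

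The probes of TCF7L2 did not move as 1 gene. A_23_P127013, the dimmest member probe (1.29 to 2.52 times background, above background on 22 of 24 arrays), read from -5.70 to -3.88. Replicate 3 was its highest array in 8 of 8 conditions, by 0.57 on average over the condition mean. For A_23_P389588 replicate 3 was the lowest array in 8 of 8 conditions. After each condition's mean was taken off, the correlation over 24 arrays was -0.75 between these probes, -0.64 between A_23_P127013 and A_33_P3377304 and 0.60 between A_23_P389588 and A_33_P3377304. Replicate number is also slide number, and the part of either in this pattern was not tested. Averaged over its probes, TCF7L2 was lower with FZD8_CRD by 0.33 without Wnt3a (limma adjusted p 0.0499) and by 0.47 with it (0.0076). The size of the second value is uncertain. It includes A_23_P127013, which was not well above background on replicates 1 and 2 of FZD8_CRD with Wnt3a. The single probe values spread from -0.78 to -0.02 and from -0.69 to -0.11.

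**Figure D4:**
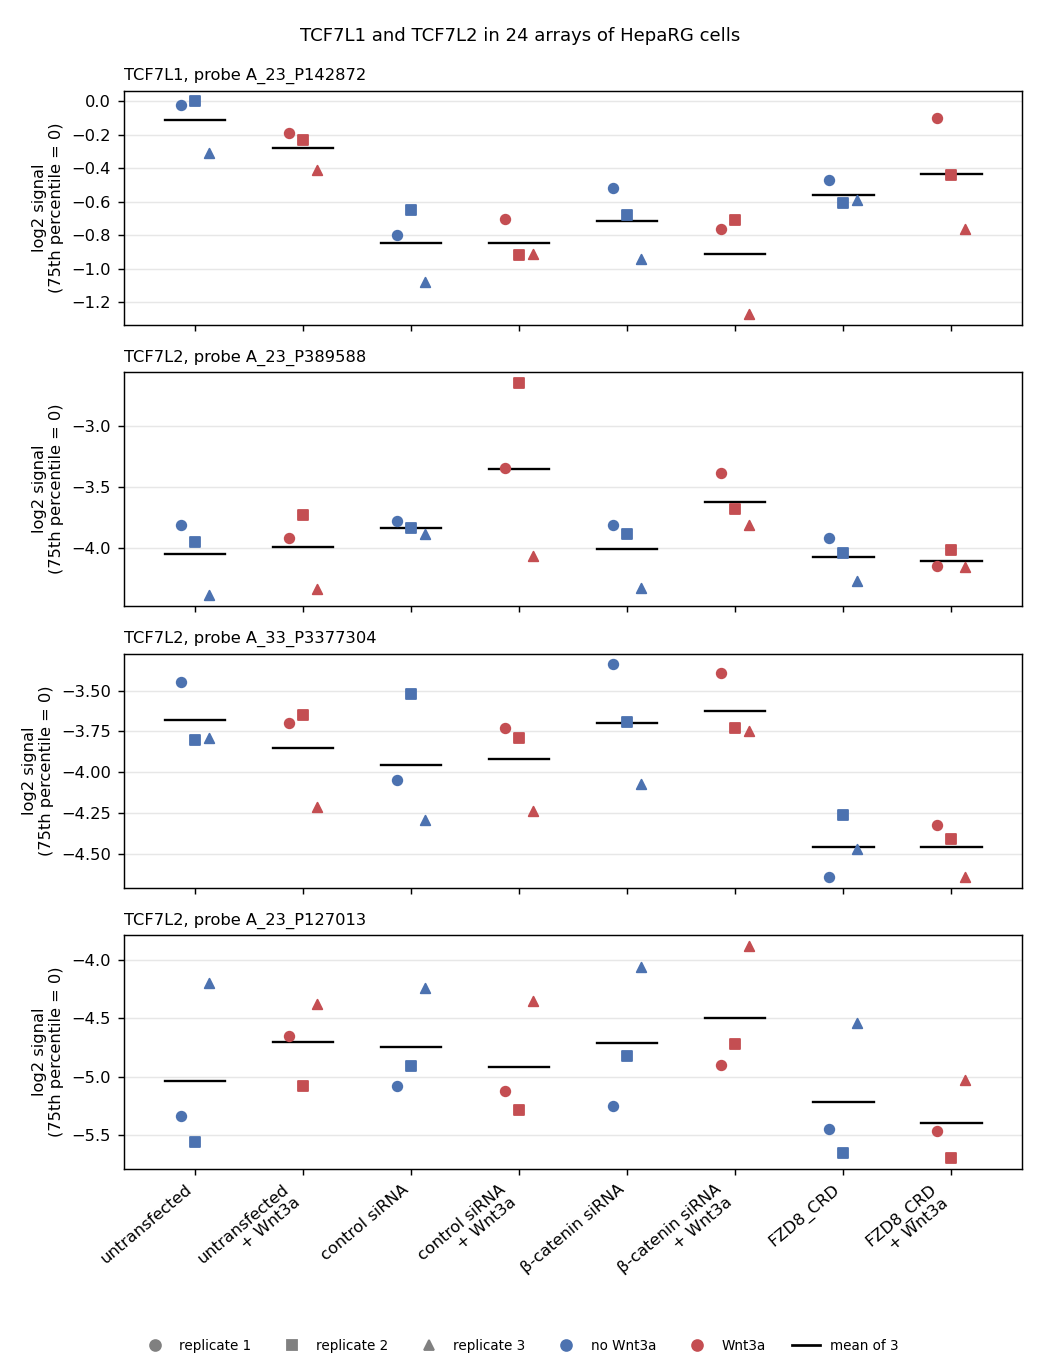
Level of TCF7L1 and of the 3 TCF7L2 probes on each of 24 arrays (vertical axis, log2 signal relative to the array's 75th percentile) by condition, drawn as for LEF1 and TCF7. TCF7L1 was highest in untransfected cells, and replicate 3 (triangles) was lowest for A_23_P389588 and highest for A_23_P127013 in every condition.

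Across the 24 arrays the level of LEF1 followed that of TCF7 (Pearson 0.84 and 0.87 for the 2 TCF7 probes, and 0.63 and 0.60 after condition means were taken off). Probes of the other pairs of genes had correlations from -0.52 to 0.23. After condition means were taken off, the widest of these were 0.63 (TCF7L1 with TCF7L2 probe A_33_P3377304) and -0.70 (TCF7L1 with A_23_P127013). These describe 24 arrays from 3 slides and carry no test. Of 15970 genes with a kept probe and no missing value, those most like LEF1 by Pearson correlation over the 24 arrays were MMD (0.971), PLK2 (0.962), STXBP6 (0.948), TGFB2 (0.943) and PKP3 (0.942). Most like TCF7 were NANOS1 (0.976), CTHRC1 (0.971), F3 (0.971), IGFL2 (0.971) and SPOCD1 (0.960). CTHRC1 means lay near the lowest value allowed (-6.13), from -6.11 to -5.52, without Wnt3a and after β-catenin siRNA with Wnt3a. The filter could keep this gene through the other Wnt3a conditions, where it was high (-3.88, -3.43 and -3.53), so its likeness is not read as a result. TCF7L1 came with SMO (0.891), CLEC11A (0.875), SLC25A29 (0.859), DLGAP4 (0.853) and VCX2 (0.845). For TCF7L2 probe A_23_P389588 the closest were ALKBH6 (0.780), ERCC3 (0.751), SNORD22 (0.743), EWSR1 (0.738) and USP21 (0.726), a looser likeness.

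Transcripts of proteins that act with or against TCF/LEF factors were read from lists. Of 18 activating partners (β-catenin itself, BCL9, PYGO, CREBBP and others), all kept, 0 were called with Wnt3a in untransfected, control siRNA or β-catenin siRNA cells, with medians of 0.08, 0.09 and 0.06. With FZD8_CRD present 1 of 18 rose, TNIK, a kinase of the TCF/β-catenin complex (0.83, SE 0.17, limma adjusted p 0.00565), at a list median of 0.03. All kept probes were called at 5.13%, 1.73%, 0.0225% and 7.82% in these comparisons, so 1 of 18 is near the share of the array. β-catenin siRNA called 1 up (CREBBP, a histone acetyltransferase, 0.38) and 2 down (CTNNB1 and DOT1L, -0.35) without Wnt3a and only CTNNB1 with it, beside 10.0% and 9.94% of all. FZD8_CRD called 3 up and 2 down of 18, and 4 up and 2 down with Wnt3a, where 41.7% and 37.2% of all kept probes were called. RUVBL1, a chromatin-remodelling ATPase, was among those up in both (0.70 and 0.58).

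Of 24 repressing partners 23 were kept, and the exception was SOX17. Wnt3a raised 3 of 23 in untransfected cells: the corepressors TLE3 (0.74, SE 0.19) and TLE4 (0.40, SE 0.09) and the pathway antagonist DACT1 (1.03, SE 0.21). It raised TLE3 (0.84) and DACT1 (0.99) after control siRNA, 0 of 23 after β-catenin siRNA and DACT1 (1.46) with FZD8_CRD. The list medians were 0.08, 0.05, 0.07 and 0.02, near the 0.025 to 0.034 of all kept probes, of which 5.13%, 1.73%, 0.0225% and 7.82% were called. β-catenin siRNA called 3 up and 1 down of 23 without Wnt3a and 2 up and 2 down with it, beside 10.0% and 9.94% of all kept probes. TLE6 fell (-1.42, and -1.13 with Wnt3a) and CTNNBIP1, which blocks the contact of β-catenin with TCF proteins, rose (0.69 and 0.49). HBP1 (0.38) and NLK (0.27) also rose without Wnt3a, and with it HIPK2 rose (0.56) and TLE3 fell (-0.69). FZD8_CRD called 7 up and 4 down both without and with Wnt3a, at a list median of 0.03 in both, beside 41.7% and 37.2% of all kept probes.

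**Figure D5:**
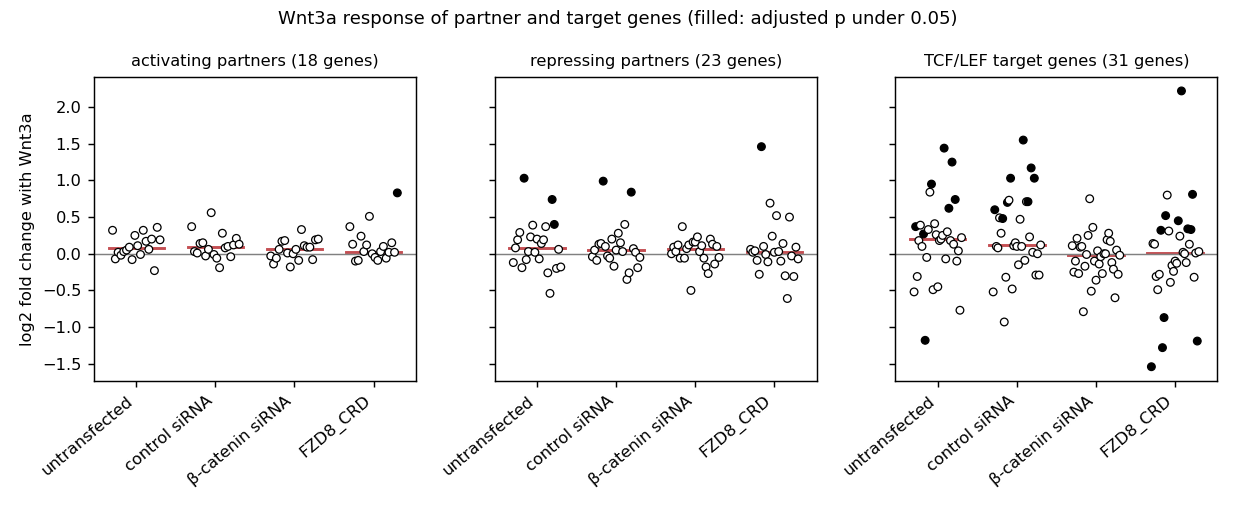
Log2 fold change with Wnt3a (vertical axis) of the genes of the activating partners (18), repressing partners (23) and TCF/LEF target genes (31) in each of 4 backgrounds, 1 point per gene, filled where the adjusted p was under 0.05, and a red line at the median. Medians ran from -0.02 to 0.20, the highest that of target genes in untransfected cells. Called genes such as MMP7 and DACT1 stood above them where β-catenin was intact.

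Known TCF/LEF target genes numbered 36, of which 31 were kept (NOTUM, DKK4, TNFRSF19, ASCL2 and FGF18 were too dim). With Wnt3a 7 of 31 rose and 1 fell in untransfected cells (median 0.20), 8 rose and 0 fell after control siRNA (0.12), 0 were called after β-catenin siRNA (-0.02), and 7 rose and 4 fell with FZD8_CRD (0.01). The shares of all kept probes called in these comparisons were 5.13%, 1.73%, 0.0225% and 7.82%. The ubiquitin ligase RNF43, a feedback inhibitor, rose by 0.74, 1.03 and 0.81 in the 3 groups with calls, and the protease MMP7 by 1.44, 1.55 and 2.22. AXIN2, a scaffold of the β-catenin destruction complex, rose by 0.37 and 0.60 in the first 2 of these. The tight-junction gene CLDN1 fell by 1.18 in untransfected cells and by 1.28 with FZD8_CRD, where DKK1 (-0.87), APCDD1 (-1.54) and TNFRSF11B (-1.19) also fell.

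The same target genes went both ways with the other treatments. β-catenin siRNA called 4 up and 6 down without Wnt3a (median 0.00), beside 10.0% of all kept probes. With Wnt3a it called 4 up and 11 down (median -0.20), beside 9.94% of all kept probes. Among these 11 were MMP7 (-3.82), RNF43 (-1.90) and AXIN2 (-0.74). NKD1 (-0.71), also counted among the 11, was above background on only 4 arrays. The filter could keep it through the condition where it was highest, so its call is not read as a change. For RNF43 the Wnt3a response itself was smaller with β-catenin siRNA than with control siRNA (-1.23, SE 0.15, limma adjusted p 0.00227), the only target gene called for that difference. FZD8_CRD called 10 up and 10 down without Wnt3a (median -0.16), and 5 up and 13 down with it (median -0.21), beside 41.7% and 37.2% of all kept probes. AXIN2 (-0.60 and -0.84) and RNF43 (-1.30 and -1.22) fell in both, where LEF1 did not fall. Control siRNA called 2 up and 8 down, and 2 up and 2 down with Wnt3a, beside 22.1% and 8.69%.

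Hepatocyte markers moved with the comparisons in which LEF1 rose and TCF7L1 fell without Wnt3a. All 10 of 10 fell with FZD8_CRD (median -2.15) and all 10 with control siRNA (median -1.77), and 6 and 7 of 10 fell with Wnt3a present (medians -0.97 and -1.39), where 41.7%, 22.1%, 37.2% and 8.69% of all kept probes were called in this order. For the Wnt3a response the medians were -0.89 (untransfected), -0.48 (control siRNA), -0.64 (β-catenin siRNA) and 0.26 (FZD8_CRD). Only FZD8_CRD cells had calls, 2 up and 1 down, where 5.13%, 1.73%, 0.0225% and 7.82% of all kept probes were called. For β-catenin siRNA the medians were 0.66 without and 0.58 with Wnt3a. Only ALB was called there, up by 1.19 with Wnt3a, beside 10.0% and 9.94% of all kept probes. Summed over the 10 genes, the log2 signal was 10.72, 10.25 and 9.73 in untransfected cells, 8.79, 8.69 and 8.74 with control siRNA and 8.63, 8.09 and 8.65 with FZD8_CRD. With Wnt3a the sums were 9.94, 8.76 and 9.98 (untransfected), 8.20, 7.74 and 8.19 (control siRNA) and 8.74, 8.72 and 8.70 (FZD8_CRD). With β-catenin siRNA they were 9.41, 9.01 and 9.34, and 8.27, 8.73 and 9.09 with Wnt3a. The brightest probe of the list was that of ALB, which weighs most in the sum, and 0 of 10 were at background. The untransfected sum was thus highest on average, overlapped that of untransfected cells with Wnt3a, and fell from replicate 1 to 3, while LEF1 went from its lowest to its highest over the same arrays. In bulk RNA, fewer cells of a type and less RNA per cell cannot be told apart, and the part of hepatocyte content in the LEF1 and TCF7L1 values was not tested.

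Fibroblast markers moved with the Wnt3a comparisons. Of 9 kept (THY1 was above background on 0 arrays), 6 rose with Wnt3a in untransfected cells (median 0.94), 4 after control siRNA (1.06), 0 after β-catenin siRNA (0.12) and 6 with FZD8_CRD (0.76), and β-catenin siRNA lowered 3 without and 6 with Wnt3a. The shares of all kept probes called were 5.13%, 1.73%, 0.0225% and 7.82% with Wnt3a and 10.0% and 9.94% for the siRNA. FZD8_CRD called 2 up and 2 down of these markers without Wnt3a and 3 up and 2 down with it (41.7% and 37.2% of all), and control siRNA 1 up and 2 down, and 0 up and 1 down (22.1% and 8.69%). COL3A1 fell with FZD8_CRD (-2.81 and -3.13) and with control siRNA (-2.11 and -1.99), and VIM rose by 1.25 and 1.67 with FZD8_CRD and by 0.77 with control siRNA without Wnt3a. Their summed log2 signal was 4.49, 4.66 and 4.75 in untransfected cells and 5.21, 5.79 and 5.45 with Wnt3a. With control siRNA it was 4.73, 4.86 and 4.55, and 5.35, 5.62 and 5.49 with Wnt3a. With β-catenin siRNA it was 4.67, 4.71 and 4.53, and 5.83, 5.66 and 5.44 with Wnt3a. That step was mostly that of the POSTN (periostin) probe, at 3.55, 3.62 and 3.30 without and 5.40, 5.15 and 4.80 with Wnt3a, while the list median was 0.12 and 0 of 9 genes were called. A sum of signals follows its brightest probes, which with β-catenin siRNA were those of POSTN and ACTA2. In untransfected cells with Wnt3a the LUM probe was about as bright (mean 3.63, beside 3.85 for POSTN and 3.51 for ACTA2). With FZD8_CRD the sum was 4.82, 4.87 and 5.63, and 6.37, 6.30 and 6.22 with Wnt3a. The FZD8_CRD array of replicate 3, where TCF7 was highest among arrays without Wnt3a, also had the highest sum among them. PDGFRB, 1 of the 3 markers called lower with β-catenin siRNA without Wnt3a (-0.79), was above background on 7 of 24 arrays. Its highest mean was in the reference of that comparison, control siRNA (-5.18). The filter could thus keep it through that condition, and its call is not read as a change. The part of cell state in the TCF7 and LEF1 values was not tested.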

How the data were processed

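HepaRG RNA was read on 24 one-colour arrays, 3 for each of 8 conditions taken from the sample labels. Per the file headers, the deposited spot values are background-subtracted, detrended intensity from Agilent Feature Extraction (version 10.7.3.1 in the submitters' processing notes), on a linear scale and not normalized between arrays. The authors also deposited a matrix for 25443 probes in log2 units, scaled to each array's 75th percentile, whose row medians are 0. Its column medians lie between -0.0502 and 0.019, and whether scaling or centring left them off 0 is unknown. The matrix served as an alternative.

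Each array (62976 spots, 61657 not controls) was scaled to its 75th percentile and taken to log2, with values set no lower than -6.13 (1.43% of that percentile). Spots marked by the software as non-uniform, as population outliers or by hand were left out, and repeated spots were averaged. Probes were kept when well above background on all 3 arrays of a condition (31062 probes, of which 26779 passed on all 24 arrays). Between 58.3% and 66.5% of spots per array were well above background.

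A mean for each condition was fitted per probe with limma 3.58.1 in R 4.3.3 (eBayes with a trend), and p-values were adjusted over all kept probes by Benjamini-Hochberg. All tests are two-sided. The model was also run on simulated arrays whose noise was independent between arrays. That run had no slide effect, so it cannot tell how the model behaves where arrays of a slide have correlated residuals. Lists use the brightest kept probe of each gene, and promoters come from RefSeq. Genes given from the lists with a fold change were chosen among those called, and likeness names the 5 highest Pearson correlations per TCF/LEF gene. Tables and figures were made in Python 3.11.15. The replicate number is the slide. Of 84 same-numbered pairs of arrays, 80 had residuals correlated above 0.1 (mean 0.371, against -0.184 for other pairs). The number was not in the model and was tried as a block. In the Wnt3a comparison of untransfected cells 2 of 3 pairs passed 0.1 (lowest -0.059). Alternatives were quantile normalization, another background correction (normexp), the deposited matrix, no filter, a filter asking for all 24 arrays, marked spots kept, another floor, scaling to 7 spike-in probes, the block, no moderation, only the conditions compared, an unadjusted p under 0.01 with a fold above 1.5 or below 0.7, 1 probe or the mean of probes per gene, and leaving out replicates or arrays. The members and lists were chosen with earlier results of these data known.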

Additional observations from a re-analysis of the deposited data

How the results depend on the processing

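Of 21 called member results, 0 changed sign in 490 refits. For the 70 results not called, the sign changed in 125 of 1716 refits. Calls were lost in 97 cases among the called results (60 of them fits without a replicate or array). They were gained in 20 cases among those not called (9 of them such fits). The falls of LEF1 and of TCF7 probe A_23_P7582 with β-catenin siRNA in the presence of Wnt3a kept their calls throughout. The cause of the lost calls was not tested. Signal over background was 1.29 to 2.52 for A_23_P127013, 1.55 to 6.86 for A_33_P3250671, 8.61 to 27.4 for TCF7L1 and 22 to 105 for LEF1, and calls were lost among bright and dim probes. Leaving out background-outlier spots, chosen after seeing the data, moved no count.

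Member counts that moved by more than 1.5 times were these. For FZD8_CRD with Wnt3a the count was 0 in place of 1 with quantile normalization, normexp, the deposited values, no filter, spike-in scaling, only the conditions compared, 1 probe per gene, and the rule of p under 0.01 with a fold limit. For Wnt3a after control siRNA it was 1 in place of 2 with quantile normalization, normexp, the deposited values, no filter, spike-in scaling and no moderation. For control siRNA with Wnt3a it was 0 in place of 1 with no filter, no moderation, spike-in scaling and only the conditions compared. With only the conditions compared it was 0 for Wnt3a in untransfected cells (from 3) and 0 with FZD8_CRD (from 2). With spike-in scaling it was 0 for β-catenin siRNA without Wnt3a (from 3) and 1 for control siRNA without Wnt3a (from 3). With 1 probe per gene, or the mean of probes, it was 1 for Wnt3a with FZD8_CRD. These settings count genes, and the main count of 2 was both probes of 1 gene, TCF7, so the called gene stayed the same. Smaller moves are not all listed: for Wnt3a after control siRNA the count was 3 in place of 2 with only the conditions compared and with the p and fold rule, and the other smaller moves were from 3 to 2, as for Wnt3a in untransfected cells with spike-in scaling. The p and fold rule gave 1 in place of 0 for the difference in Wnt3a response by FZD8_CRD.

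The replicate number as a block gave 2 in place of 1 for FZD8_CRD with Wnt3a, 2 in place of 1 for control siRNA with Wnt3a, and 1 in place of 0 for the difference by FZD8_CRD (LEF1, -0.95, adjusted p 0.0478). The block changed no other call, and the pairing differed among comparisons.

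Without a replicate or array the counts ranged over 0 to 3 for Wnt3a in untransfected cells, 0 to 2 in control siRNA cells, 0 to 0 in β-catenin siRNA cells and 0 to 2 in FZD8_CRD cells. They ranged over 0 to 3 and 2 to 3 for β-catenin siRNA without and with Wnt3a, 1 to 3 and 0 to 2 for FZD8_CRD, and 0 to 4 and 0 to 2 for control siRNA. For the differences in Wnt3a response they were 0 to 0 (β-catenin siRNA), 0 to 1 (FZD8_CRD) and 0 to 0 (control siRNA).

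Spike-in scaling moved the median of all probes to -0.37 for Wnt3a in untransfected cells, 0.19 in control siRNA cells and -0.10 in β-catenin siRNA cells, to -0.22 for β-catenin siRNA with Wnt3a, to -0.46 and -0.16 for FZD8_CRD without and with Wnt3a, to -0.30 and 0.26 for control siRNA, and to -0.28, 0.30 and 0.56 for the differences.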
